A study of Mus musculus with 32 samples.

Results

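The Hedgehog pathway genes described here are 8 genes chosen by name: the ligand Ihh, the receptor Ptch1, the signal transducer Smo, the inhibitor Sufu, the transcription factors Gli1, Gli2 and Gli3, and the ligand trap Hhip. All 8 were found among the 41388 genes of the deposited tables, and all 8 were among the 16136 genes with enough reads to be tested. RNA had been sequenced from primary chondrocytes of femoral heads, taken from LG/J and SM/J mice at postnatal day 21 and grown for 4 days in 10% serum without passaging. Both are inbred strains: LG/J mice heal wounds well, and SM/J mice heal them poorly. Each strain and sex gave 8 libraries, and the labels name no treatment or engineered allele. The labels do not say that the 8 libraries of a group came from separate animals or cultures, so the spread behind each p-value may be technical.

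In the growth plate, Indian hedgehog (Ihh) is secreted by chondrocytes that have stopped dividing and are about to enlarge. It binds Patched 1 (Ptch1), which otherwise holds Smoothened (Smo) inactive. Freed Smoothened acts through the primary cilium on the GLI factors, which Sufu restrains in the cytoplasm. Gli2 is known mainly as an activator and Gli3 mainly as a repressor. Gli1, Ptch1 and Hhip are themselves GLI target genes, so their transcripts are widely used as readouts of the pathway. Ihh also induces the parathyroid hormone-related protein (Pthlh), which in turn delays the step at which chondrocytes begin to make Ihh.

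The receptor and all 3 GLI factors were higher in LG/J than in SM/J, whereas the ligand, Smo, Sufu and Hhip did not pass the test. Over both sexes 4 of the 8 members were higher in LG/J at an adjusted p under 0.05 and 0 were lower. The test was the quasi-likelihood test of edgeR with Benjamini-Hochberg adjustment over all genes tested. The same counts, 4 higher and 0 lower, were found at an unadjusted p under 0.05, with DESeq2 and with limma voom. Of all genes tested, 16.4% were higher in LG/J and 13.5% were lower. Without both LG/J libraries numbered 1, described next, Ptch1, Gli1, Gli2 and Gli3 passed again and were higher, as were 17.1% of all genes tested. Gli1 and Gli2 did not pass without the 6 libraries with both sexes' transcripts or with each pair of close libraries summed, and Gli1, Gli2 and Gli3 did not pass without the LG/J libraries numbered 4 and 5. Ptch1 passed each time. The median log2 fold change was 0.40 over the 8 members and 0.02 over all genes tested. The cells are a bulk sample, so fewer cells of a type and less RNA per cell cannot be told apart.

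Chondrocyte transcripts were present in every library, and 2 libraries stood apart. Total counts ran from 15840330 to 25571598 per library. Col2a1, the main cartilage collagen, was at 7536 CPM or more in the 14 LG/J libraries not numbered 1 and at 4551 CPM or more in all SM/J libraries; CPM here is the count scaled to library size with TMM factors. It reached 629 CPM in LG/J female 1 and 1379 CPM in LG/J male 1. The same libraries held 48.2 and 67.7 CPM of Acan, the aggrecan core protein, and 180500 and 164300 CPM of the osteopontin gene Spp1, which did not exceed 13430 CPM in any other LG/J library. Of 112 pairs of libraries within groups, 6 were closer to each other than the rest, and LG/J females 4 and 5 and LG/J males 4 and 5 were among them. Transcripts of both sexes, Xist of the inactive X chromosome and Ddx3y of the Y chromosome, were found together at over 10 CPM each in 6 libraries. These were numbers 4 and 5 of the LG/J females, numbers 3 and 4 of the SM/J females and numbers 2 and 3 of the SM/J males. Where a member lost its call without these libraries, the loss is stated.

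The windows around the transcription starts of Ptch1, Gli2 and Gli3 are shown because these 3 genes were among those that differed between strains. The windows come from the reference build, and the sequence of neither strain was read here. RefSeq promoter windows of GRCm38.p6, 250 bases before to 50 bases after the start, were matched for 7 of the 8 members, all but Gli1. The GLI consensus GACCACCCA was searched on both strands, then the same letters without the last base, GACCACCC, and then their core CCACCC, which lies within both. Capitals mark CCACCC, which reads GGGTGG where it lies on the opposite strand. Each window runs 5′ to 3′ on the strand of the gene, and RefSeq starts need not equal the ends of the deposited gene models. The Ptch1 window lies at chr13:63565686-63565985 on the minus strand, the Gli2 window at chr1:119053570-119053869 on the minus strand and the Gli3 window at chr13:15463473-15463772 on the plus strand.
Ptch1: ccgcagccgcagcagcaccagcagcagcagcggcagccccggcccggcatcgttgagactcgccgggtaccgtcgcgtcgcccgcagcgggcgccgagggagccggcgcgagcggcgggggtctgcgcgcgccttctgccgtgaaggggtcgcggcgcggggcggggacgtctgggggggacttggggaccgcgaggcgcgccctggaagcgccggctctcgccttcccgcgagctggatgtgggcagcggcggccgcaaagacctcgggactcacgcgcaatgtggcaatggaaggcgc
Gli2: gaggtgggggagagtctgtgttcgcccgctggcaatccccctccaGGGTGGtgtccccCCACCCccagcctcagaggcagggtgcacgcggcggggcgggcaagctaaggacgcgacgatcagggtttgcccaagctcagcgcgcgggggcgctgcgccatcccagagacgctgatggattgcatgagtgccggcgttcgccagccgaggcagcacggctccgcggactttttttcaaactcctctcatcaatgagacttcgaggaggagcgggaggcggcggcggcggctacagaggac
Gli3: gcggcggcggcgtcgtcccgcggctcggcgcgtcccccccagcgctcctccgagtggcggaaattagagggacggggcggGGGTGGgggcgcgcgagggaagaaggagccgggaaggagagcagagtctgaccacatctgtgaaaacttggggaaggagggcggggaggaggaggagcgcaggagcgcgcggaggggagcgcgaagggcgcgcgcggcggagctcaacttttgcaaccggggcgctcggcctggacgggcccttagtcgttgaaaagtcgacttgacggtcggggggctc

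The 9-letter consensus was in none of the 7 windows, and neither was the 8-letter form. Among 32851 mouse promoters of the same length, 0.253% held the first and 0.807% the second. The core CCACCC was in the windows of Ihh, Smo, Gli2, Gli3 and Hhip and in neither that of Ptch1 nor that of Sufu, and 31.5% of all promoters held it. Counted from the start, the first base of the core was at -205 and -192 in Gli2 and at -170 in Gli3. The windows shown were rich in G and C, at 76.3% for Ptch1, 67.3% for Gli2 and 71.0% for Gli3, against a median of 52.7% over all promoters. They held 47, 28 and 39 CpG pairs in that order, against a median of 7. These matches describe letters in a short window and nothing about binding.

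Transcript levels differed widely among the members. As mean CPM per kb of the deposited gene length over all 32 libraries, Smo was highest at 10.3 ± 3.14 (SD). Gli3 followed at 2.95 ± 0.523, Ptch1 at 1.97 ± 0.891 and Sufu at 1.17 ± 0.393 CPM per kb. Gli2 at 0.546 ± 0.308, Ihh at 0.538 ± 0.392, Hhip at 0.533 ± 0.352 and Gli1 at 0.323 ± 0.33 CPM per kb did not differ by more than their spread. The deposited length of Ptch1, 4305 bases, is shorter than its 14185 annotated exonic bases, and per kb of the latter Ptch1 was at 0.599 ± 0.271, below Sufu at 1.06 ± 0.355. The other members kept their places in that order, with Smo at 6.92 ± 2.11 and Gli1 at 0.237 ± 0.242 CPM per kb. With either length the cells held more message for the transducer and for the repressor-type GLI factor, per length, than for the ligand or for Gli1. The least abundant members rested on few reads. Ihh had 1 to 100 reads per library and Gli1 had 0 to 102, against 271 to 1563 for Smo.

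**Figure D1:**
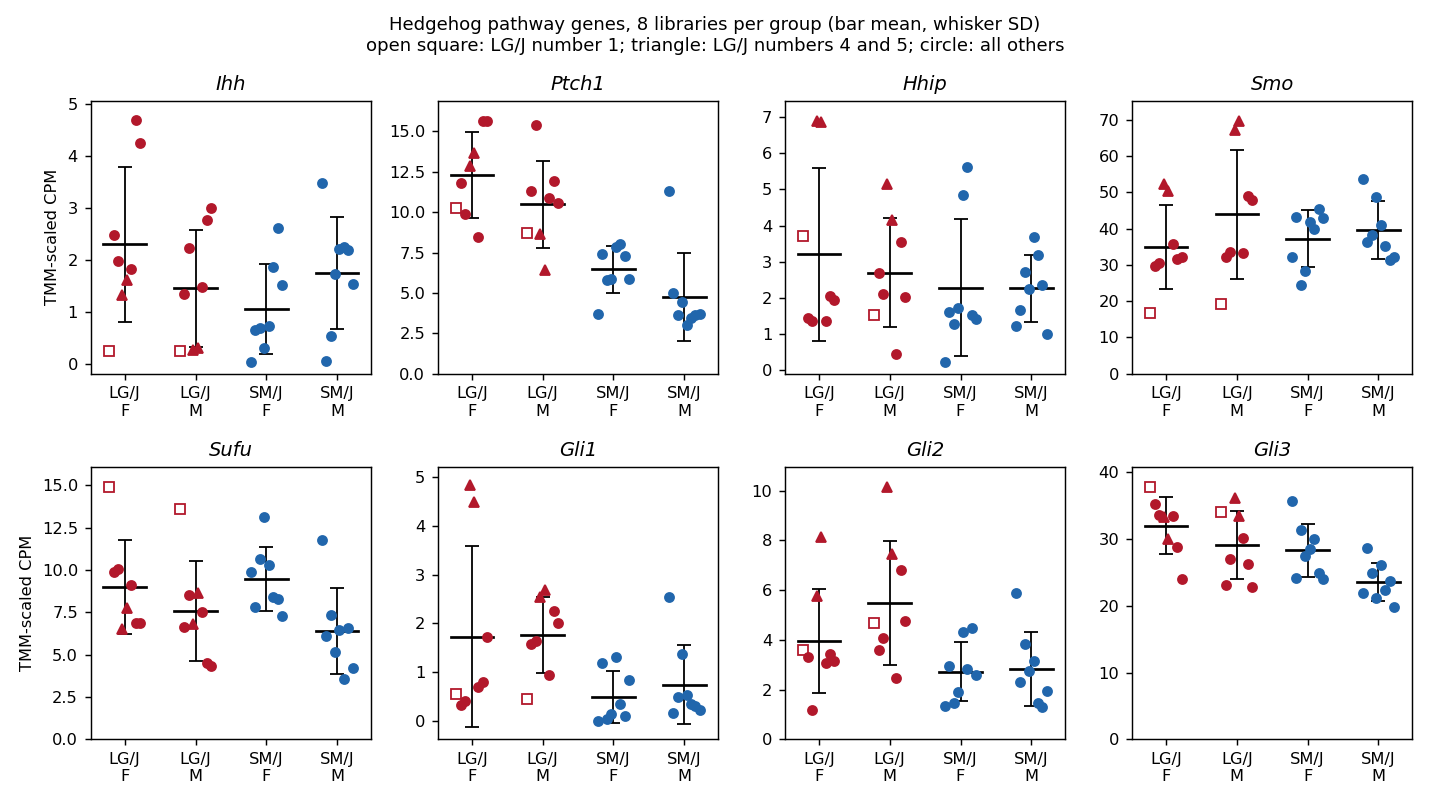
Level of each Hedgehog gene (vertical axis, TMM-scaled CPM) in every library of the 4 groups (F female, M male; black bar mean, whisker SD, n = 8). Ptch1 lies higher in LG/J, with 7 LG/J libraries above every SM/J library, and triangles, the LG/J libraries numbered 4 and 5, hold the 4 highest LG/J levels of Gli1, Hhip and Smo.

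The ligand Ihh (ENSMUSG00000006538, GRCm38 chromosome 1, 74945315 to 74951672, minus strand) was low and variable in both strains. In LG/J females its level ran from 0.247 through a median of 1.90 to 4.69 CPM, and in LG/J males from 0.253 through 1.41 to 2.99 CPM. In SM/J females it ran from 0.0474 through 0.704 to 2.61 CPM, and in SM/J males from 0.0554 through 1.96 to 3.49 CPM. The groups overlapped throughout, and 9 of 16 LG/J libraries were above the SM/J median. The lowest LG/J values were those of both libraries numbered 1, with 4 reads each, and of males 4 and 5, with 6 and 7 reads. The lowest SM/J values, in female 1 and male 2, rested on 1 read each. The strain difference over both sexes was 0.43 ± 0.42 on the log2 scale (SE), with a 95% interval from -0.44 to 1.30 (edgeR adjusted p = 0.482). Without both LG/J libraries numbered 1 it was 0.60, with an edgeR adjusted p of 0.278.

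Ptch1 (ENSMUSG00000021466, chromosome 13, 63511533 to 63565520, minus strand) encodes the Hedgehog receptor and was about 2-fold higher in LG/J. In LG/J females its level ran from 8.49 through a median of 12.34 to 15.65 CPM, and in LG/J males from 6.42 through 10.73 to 15.39 CPM. SM/J females ran from 3.69 through 6.60 to 8.003 CPM, and SM/J males from 2.996 through 3.66 to 11.31 CPM. All 16 LG/J libraries lay above the SM/J median, and 11 of 16 SM/J libraries lay below every LG/J library. The strains overlapped in the other 5 SM/J libraries, of which 4 were females at 7.31 to 8.003 CPM, above the lowest LG/J library, and male 1, at 11.31 CPM, lay highest. Of all genes tested, 1.36% were higher in LG/J with no overlap between strains. The mean was 11.4 ± 2.74 CPM over the 16 LG/J and 5.62 ± 2.28 CPM over the 16 SM/J libraries (SD). The fitted log2 difference was 1.03 ± 0.16, a 2.04-fold change (edgeR adjusted p = 3.59e-06). Ptch1 passed in all 43 alternative fits over both sexes, with log2 differences from 0.95 to 1.19.

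Smo (ENSMUSG00000001761, chromosome 6, 29735694 to 29761365, plus strand), which carries the signal once Patched releases it, did not pass the test between strains. Its level ran from 16.7 through a median of 33.4 to 69.7 CPM in LG/J and from 24.4 through 39.1 to 53.7 CPM in SM/J. The LG/J libraries were the more spread, with an SD of 15.2 CPM against 7.70 CPM in SM/J. Both LG/J libraries numbered 1 were the lowest, at 16.7 and 19.3 CPM, and the 4 LG/J libraries numbered 4 and 5 were the highest of all 16, at 50.2 to 69.7 CPM. The log2 difference was 0.03 ± 0.15, with a 95% interval from -0.28 to 0.34 (edgeR adjusted p = 0.909). It turned to -0.25 without the LG/J libraries numbered 4 and 5.

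Sufu (ENSMUSG00000025231, chromosome 19, 46396896 to 46488804, plus strand) binds GLI proteins and holds them inactive, and it did not pass the test between strains. It ran from 4.31 through a median of 7.64 to 14.9 CPM in LG/J and from 3.55 through 7.60 to 13.1 CPM in SM/J. The highest LG/J values were those of both libraries numbered 1, at 14.9 CPM in the female and 13.6 CPM in the male. The log2 difference was 0.08 ± 0.16, with a 95% interval from -0.24 to 0.40 (edgeR adjusted p = 0.733). Without both libraries numbered 1 it was -0.07 (edgeR adjusted p = 0.749).

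Gli1 (ENSMUSG00000025407, chromosome 10, 127329889 to 127341589, minus strand) is both a GLI activator and a GLI target, and it had the largest fitted fold change of the 8 members. LG/J females ran from 0.335 through a median of 0.752 to 4.82 CPM, and LG/J males from 0.442 through 1.82 to 2.67 CPM. SM/J females ran from 0 through 0.253 to 1.32 CPM, and SM/J males from 0.166 through 0.42 to 2.54 CPM. In SM/J female 1 no read was counted, which allows a level of up to 0.142 CPM for 3 counts, by counting error alone. The strains overlapped, while 15 of 16 LG/J libraries lay above the SM/J median and 1 of 16 SM/J libraries lay above the LG/J median. The log2 difference was 1.51 ± 0.47, a 2.85-fold change (edgeR adjusted p = 0.0153). This call was lost without the LG/J libraries numbered 4 and 5, where the difference was 0.78 (edgeR adjusted p = 0.245). It was lost as well with each close pair summed to 1 library (1.17, edgeR adjusted p = 0.12) and without the 6 libraries with both sexes' transcripts (0.61, edgeR adjusted p = 0.36). On the opposite strand, 62 of 4995 annotated exonic bases of Gli1 overlap Arhgap9, at a mean of 0.275 CPM, and 265 overlap an antisense transcript. The strand setting of the counting is not given in the sources used here, so reads of such partners cannot be told apart from those of Gli1.

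Gli2 (ENSMUSG00000048402, chromosome 1, 118834132 to 119053619, minus strand), the main GLI activator, was 1.68-fold higher in LG/J. Its level ran from 1.20 through a median of 3.83 to 10.15 CPM in LG/J and from 1.30 through 2.67 to 5.87 CPM in SM/J. The strains overlapped, and 14 of 16 LG/J libraries lay above the SM/J median. The log2 difference was 0.75 ± 0.24 (edgeR adjusted p = 0.017). It fell to 0.37 without the LG/J libraries numbered 4 and 5 (edgeR adjusted p = 0.26), to 0.55 with close pairs summed (edgeR adjusted p = 0.131) and to 0.47 without the 6 libraries with both sexes' transcripts (edgeR adjusted p = 0.191), and the call was lost each time.

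Gli3 (ENSMUSG00000021318, chromosome 13, 15463235 to 15730026, plus strand), whose processed form is the main GLI repressor, showed the smallest of the 4 differences and the least spread. Its level ran from 22.8 through a median of 31.8 to 37.9 CPM in LG/J and from 19.8 through 25.0 to 35.7 CPM in SM/J. The strains overlapped, and 13 of 16 LG/J libraries lay above the SM/J median. The log2 difference was 0.24 ± 0.074, a 1.18-fold change (edgeR adjusted p = 0.0132). Without the LG/J libraries numbered 4 and 5 it was 0.19, with an edgeR adjusted p of 0.0795.

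Hhip (ENSMUSG00000064325, chromosome 8, 79966115 to 80058006, minus strand) encodes a membrane protein that binds Hedgehog ligands and limits their range. Its level ran from 0.45 through a median of 2.08 to 6.90 CPM in LG/J and from 0.237 through 1.69 to 5.62 CPM in SM/J, and the strains overlapped. The log2 difference was 0.37 ± 0.33, with a 95% interval from -0.31 to 1.06 (edgeR adjusted p = 0.439). Without the LG/J libraries numbered 4 and 5 it was -0.18. Of the 3 GLI targets among the members, Ptch1 and Gli1 thus passed between strains and Hhip did not. Whether their differences were unequal was not tested.

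**Figure D2:**
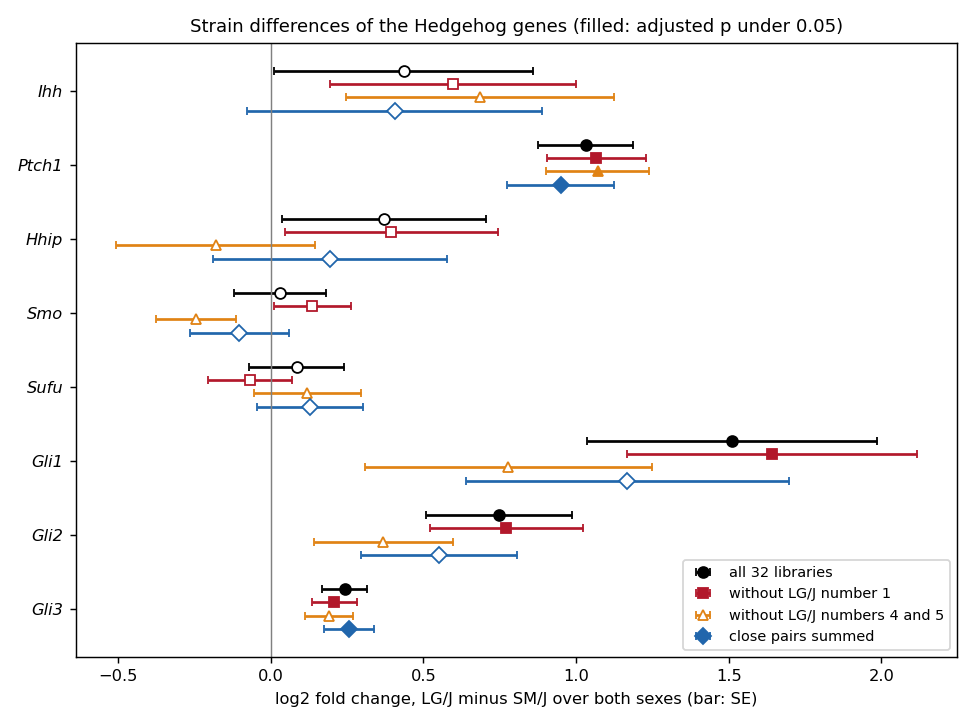
Fitted log2 fold change of each Hedgehog gene in LG/J relative to SM/J, both sexes together (horizontal axis; bar SE), in all 32 libraries and in 3 alternatives; filled symbols have an adjusted p under 0.05. Ptch1 is filled in all 4 fits near 1.0, Gli1 and Gli2 are open without LG/J numbers 4 and 5 and with close pairs summed, and Gli3 is open without LG/J numbers 4 and 5.

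The LG/J libraries numbered 4 and 5 formed a subset with high Smo, Gli1, Gli2 and Hhip. They were set apart after their values were seen, so no test is given. The share of all genes that separates them from the other LG/J libraries was not computed. Gli1 was at 4.82 and 4.48 CPM in females 4 and 5 and at 2.55 and 2.67 CPM in males 4 and 5, against 0.335 to 2.25 CPM in the 10 LG/J libraries other than numbers 1, 4 and 5. Hhip was at 6.90, 6.86, 5.14 and 4.15 CPM in the same order, against 0.45 to 3.54 CPM in those 10. Gli2 was at 5.77 and 8.15 CPM in the females and 10.15 and 7.44 CPM in the males. The range of Gli2 in those 10 was 1.20 to 6.80 CPM and overlapped these values. Ihh was not high in the subset, at 1.32 and 1.62 CPM in the females and 0.264 and 0.312 CPM in the males. It was at 1.35 to 4.69 CPM in those 10. Ptch1 was at 12.86 and 13.67 CPM in the females and at 8.65 and 6.42 CPM in the males, which were the lowest LG/J males. Without these libraries the strain difference of Ptch1 was 1.07 and it was the 1 member that passed, where 13.2% of all genes tested were higher in LG/J.

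Some marker lists also stood apart in these libraries. The summed level of 7 prehypertrophic and hypertrophic chondrocyte markers was 1856 to 3661 CPM in LG/J numbers 4 and 5 and 3794 to 9125 CPM in the 10 LG/J libraries other than numbers 1, 4 and 5. The summed level of 13 chondrocyte markers was 28700 to 32190 CPM and 14990 to 39750 CPM in the same order. Fibroblast and dedifferentiation markers, 8 genes, summed to 878 to 1051 CPM and 594 to 3997 CPM, and 12 macrophage markers to 74.2 to 110.0 CPM and 33.6 to 1852 CPM. Of these lists the hypertrophic markers alone did not overlap between the subset and the 10 libraries. Mmp13 had the highest mean of their 7 genes over all LG/J libraries, at 3624 ± 4177 CPM (SD), with both libraries numbered 1 included. Without those libraries the log2 difference between strains was -0.56 for Mmp13 and -0.05 for Ibsp. It was 0.67 to 1.31 for the rest of the list. The share of Mmp13 in the sums of the subset and of the 10 libraries was not computed. The sum therefore need not stand for each of the 7 genes. In both LG/J libraries numbered 1 the same sum was 14740 to 14750 CPM. Osteoblast markers, 7 genes, summed to 245.3 to 442 CPM and 404 to 1881 CPM, and 5 adipocyte markers to 8.26 to 12.9 CPM and 10.8 to 238 CPM, so that the subset lay at the low end of both. Osteoclast markers summed to 361 to 394 CPM and 196 to 457 CPM, and endothelial and muscle markers to at most 8.15 CPM in the subset. Females 4 and 5 also held the Y-linked Ddx3y. The part of these differences in the Hedgehog values was not tested.

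**Figure D3:**
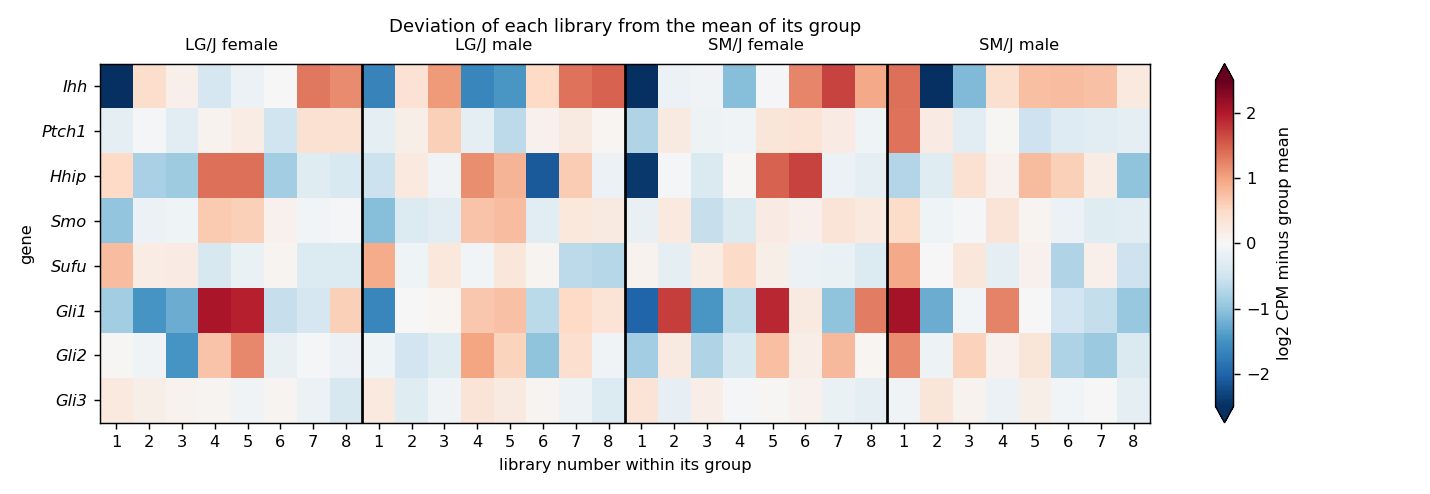
Deviation of each library from its group mean (colour, log2 CPM) for the 8 genes (rows) and 32 libraries (columns, by group and number). LG/J numbers 4 and 5 are red in Hhip, Smo, Gli1 and Gli2 in both sexes. LG/J number 1 is blue in Ihh, Smo and Gli1 and red in Sufu in both sexes. SM/J male 1 is red in Ihh, Ptch1, Smo, Sufu, Gli1 and Gli2.

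Markers of chondrocytes and of other cell types were also counted between strains, beside the 16.4% of all genes tested that were higher in LG/J and the 13.5% that were lower. Of 13 chondrocyte markers 3 were higher in LG/J (6 with limma voom), and 10 were without both libraries numbered 1. Of 7 prehypertrophic and hypertrophic markers 3 were higher (4 with DESeq2 and with limma voom), and 5 were without those libraries. Fibroblast and dedifferentiation markers had 1 higher and 3 lower of 8 (4 lower with DESeq2, 2 lower with limma voom). Macrophage markers had 3 lower of 10 tested (6 with DESeq2 and with limma voom). Osteoclast markers had 2 lower of 5 tested, and limma voom also called 1 higher. The macrophage markers C1qb and C1qc had too few reads to be tested. Of 6 osteoblast markers 1 was higher (2 with DESeq2 and with limma voom), and DESeq2 also called 1 lower. Of 3 endothelial, 2 adipocyte and 2 muscle markers tested, 0 passed with edgeR or DESeq2, 1 endothelial marker had an unadjusted p under 0.05, and limma voom called 1 adipocyte marker. Summed macrophage markers ran from 33.6 through a median of 78.8 to 1852 CPM in LG/J and from 92.5 through 337 to 1346 CPM in SM/J. Their part in the strain differences of the Hedgehog genes was not tested.

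Within LG/J, Ptch1 rose with Ihh by Pearson's correlation, and by Spearman's before adjustment. On log2 CPM the Pearson correlation over 16 LG/J libraries was 0.72 (permutation p = 0.00174, 0.0104 after Benjamini-Hochberg adjustment over the 6 relations computed). Spearman's rho was 0.61 (permutation p = 0.0134, adjusted 0.0804). Leaving out the 2 libraries farthest from the median of Ihh, which were both libraries numbered 1, gave a Pearson correlation of 0.75 (n = 14, permutation p = 0.00224, adjusted 0.0134). With close pairs summed it was 0.66 over 12 libraries (permutation p = 0.0187, adjusted 0.112). Ihh and Ptch1 come from the same libraries and share their scaling. The permutations of all 6 relations pooled the females and males of a strain, so sex was not held fixed.

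In LG/J, Gli1 and Hhip did not follow the ligand, with Pearson correlations to Ihh of 0.02 and -0.29 and Spearman's rho of -0.06 and -0.35 (adjusted permutation p = 0.95 and 0.42 for Pearson, 0.823 and 0.356 for Spearman, n = 16). In SM/J the Pearson correlations of Ihh with Gli1, Ptch1 and Hhip were 0.49, 0.16 and 0.44, and Spearman's rho was 0.36, 0.06 and 0.20. None passed after adjustment (adjusted permutation p = 0.173, 0.676 and 0.182 for Pearson, 0.356, 0.823 and 0.681 for Spearman, n = 16). Without the 2 SM/J libraries farthest in Ihh, which had 1 read of it each, the Pearson correlations were 0.20, -0.0047 and 0.01. The difference between strains in the relation of Ihh with Ptch1 was not tested.

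**Figure D4:**
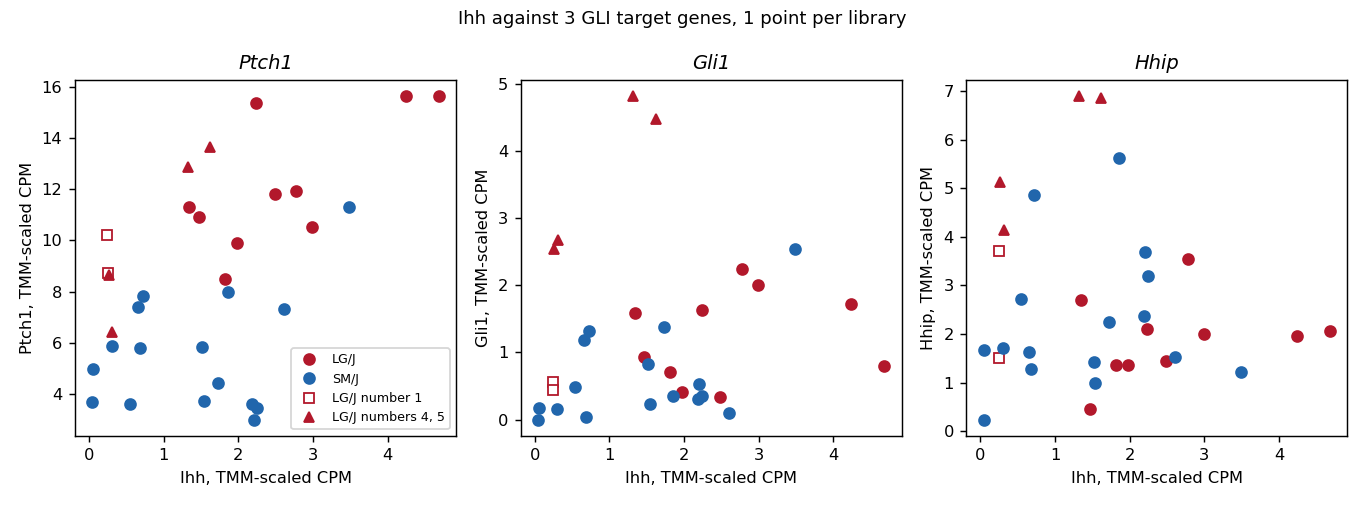
Ihh (horizontal axis) against Ptch1, Gli1 and Hhip (vertical axes), in TMM-scaled CPM, 1 point per library, coloured by strain. Ptch1 rises with Ihh among LG/J libraries (Pearson r = 0.72 on log2 CPM), and the highest Gli1 and Hhip lie in the LG/J libraries numbered 4 and 5, 2 of which have 0.264 and 0.312 CPM of Ihh.

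Within each sex, the receptor had the smallest adjusted p of the members. In females Ptch1 alone passed, at 0.92 ± 0.22 on the log2 scale (edgeR adjusted p = 0.00299), where 6.87% of all genes tested were higher in LG/J. Without the 4 female and 2 male libraries holding transcripts of both sexes it was 0.83, with an edgeR adjusted p of 0.0554. In females the log2 difference of Gli1 was 1.78 ± 0.68 (edgeR adjusted p = 0.0811). It passed with DESeq2 (1.79, adjusted p = 0.0427) and with limma voom (2.15, adjusted p = 0.0305). It also passed without SM/J female 5 (2.16, edgeR adjusted p = 0.0425), but not in the other 40 of 43 alternatives. With those 4 female and 2 male libraries left out, the difference of Gli1 in females was 0.23 (edgeR adjusted p = 0.892). The log2 difference of Ihh was 1.13 ± 0.61 in females (edgeR adjusted p = 0.253).

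In males Ptch1, Gli2 and Gli3 passed, where 12.8% of all genes tested were higher in LG/J. The log2 difference of Ptch1 was 1.14 ± 0.22 (edgeR adjusted p = 0.00024), that of Gli2 was 0.96 ± 0.34 (edgeR adjusted p = 0.0391) and that of Gli3 was 0.31 ± 0.11 (edgeR adjusted p = 0.0351). The calls of Gli2 and Gli3 lay near the threshold and were lost on leaving out any 1 of several libraries. Gli2 lost its call without any 1 of LG/J males 4, 5 and 7 or SM/J males 2, 4, 5, 6, 7 and 8, with edgeR adjusted p from 0.0509 to 0.111. Gli3 lost its call without any 1 of LG/J males 1, 4 and 5 or SM/J males 1, 4, 6, 7 and 8, with edgeR adjusted p from 0.0524 to 0.0887. It also lost its call without both LG/J libraries numbered 1 (0.27, edgeR adjusted p = 0.0601). In males the log2 difference of Gli1 was 1.24 ± 0.66 (edgeR adjusted p = 0.192), and it passed without SM/J male 1 (1.83, edgeR adjusted p = 0.0471) and with limma voom (1.997, adjusted p = 0.00507). The difference of Ihh was -0.26 ± 0.60 in males (edgeR adjusted p = 0.811).

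The strain difference was not shown to depend on sex for any member. For Ihh, whose difference was 1.13 in females and -0.26 in males, the interaction was -1.40 ± 0.85 (edgeR adjusted p = 0.74). With edgeR 0 of 8 members passed for the interaction, 0 had an unadjusted p under 0.05, and DESeq2 and limma voom also called 0, where 0.0062% of all genes tested passed with edgeR.

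Between sexes, 0 of 8 members passed with edgeR, where 3.46% of all genes tested did, while 3 had an unadjusted p under 0.05 and all 3 were lower in males. Over both strains Sufu was lower in males by 0.41 ± 0.16 on the log2 scale, as male minus female -0.41 (edgeR adjusted p = 0.14). The difference was -0.20 ± 0.074 for Gli3 (edgeR adjusted p = 0.128) and -0.34 ± 0.15 for Ptch1 (edgeR adjusted p = 0.233). DESeq2 called 0 members and limma voom 2, Ptch1 at -0.51 (adjusted p = 0.0129) and Sufu at -0.48 (adjusted p = 0.0124). Without SM/J male 1 both passed with edgeR, Ptch1 at -0.49 (adjusted p = 0.0118) and Sufu at -0.50 (adjusted p = 0.0366), and without LG/J male 1 Sufu passed at -0.50 (adjusted p = 0.0405).

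The genes most like Ihh across libraries were genes of maturing chondrocytes in part. Likeness was the Pearson correlation of deviations from the 4 group means over the 30 libraries other than both LG/J libraries numbered 1, among 10835 genes whose mean log2 CPM was 1 or more. It is given as a description, since all genes share each library's makeup and scaling. Panx3, a channel protein of prehypertrophic chondrocytes, had a correlation of 0.873 with Ihh. Flvcr2, a choline transporter, followed at 0.852, Mtus2 at 0.81, Prss35 at 0.804 and Mef2c, a transcription factor that drives chondrocyte hypertrophy, at 0.803. Gli3 stood at the other end, with a correlation of -0.685 to Ihh (Spearman's rho -0.648), and Ptch1 ranked 432nd at 0.458. Between strains Panx3 was higher in LG/J by 1.09 ± 0.36 on the log2 scale (edgeR adjusted p = 0.022) and Mef2c by 1.13 ± 0.19 (edgeR adjusted p = 1.8e-05). Flvcr2 was higher by 0.68 ± 0.25 (edgeR adjusted p = 0.0385). Mtus2, at 0.08 ± 0.29, and Prss35, at 0.01 ± 0.29, did not pass (edgeR adjusted p = 0.876 and 0.989).

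Other genes were among those most like Gli1. Thsd4, a matrix-associated ADAMTS-like protein, had a correlation of 0.838 with Gli1, Tab1 of 0.818, Zfp423 of 0.8 and Wfdc1 of 0.796. Among the members, Smo ranked 51st at 0.714, Gli2 ranked 74th at 0.699 and Hhip ranked 446th at 0.589. The correlation of Gli1 with Ptch1 was 0.456 and with Ihh 0.202. Libraries high in Gli1 for their group thus tended to be high in Smo, Gli2 and Hhip. The LG/J libraries numbered 4 and 5 take part in these values.

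Other genes of the pathway were given by lists of their roles, whose counts stand beside the 16.4% of all genes tested that were higher in LG/J and the 13.5% that were lower. Among genes of ligands and their release, 3 of the 6 genes tested were higher in LG/J and 0 were lower with edgeR, and the list's median log2 difference was 0.69. The counts were the same at an unadjusted p under 0.05 and with DESeq2, while limma voom called 4 higher and 0 lower. Shh and Dhh had too few reads to be tested, which left Ihh the only Hedgehog ligand with enough reads. Disp2, a relative of the Hedgehog release factor Disp1, was at 1.03 ± 0.567 CPM in LG/J against 0.18 CPM in SM/J, a log2 difference of 2.49 ± 0.40 (edgeR adjusted p = 9.49e-06). Scube3 was higher by 1.70 ± 0.30 (edgeR adjusted p = 4.21e-05) and Scube1 by 1.13 ± 0.25 (edgeR adjusted p = 0.000737), both secreted relatives of a Hedgehog release factor. Disp1 itself averaged 31.4 CPM in LG/J against 28.7 CPM and did not pass (0.13 ± 0.10, edgeR adjusted p = 0.358).

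At the cell surface, 1 of the 9 co-receptors and surface modulators was higher and 1 was lower, and 2 were higher and 2 lower without both LG/J libraries numbered 1. Hspg2, the heparan sulphate proteoglycan perlecan, was higher by 0.50 ± 0.15 (edgeR adjusted p = 0.0101, and 0.0515 with close pairs summed). Ext2, of the enzyme that builds heparan sulphate, changed by -0.45 ± 0.074 (edgeR adjusted p = 1.6e-05). The co-receptor Cdon, at 0.50 ± 0.20, had an edgeR adjusted p of 0.0665, which was 0.0369 without those libraries. Ext1, the partner of Ext2, was at -0.22 ± 0.15 (edgeR adjusted p = 0.317) and at -0.47 without them (edgeR adjusted p = 0.00021). Of the 9 Smoothened partners at the cilium that were tested, 1 passed: Efcab7, which tethers the EVC complex, was higher by 0.91 ± 0.099 (edgeR adjusted p = 7.54e-09). Evc and Evc2 themselves were at -0.05 ± 0.10 and -0.03 ± 0.11.

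Genes of GLI processing and degradation moved both ways, with 5 of 16 higher and 3 lower in LG/J. Prkaca, a catalytic subunit of protein kinase A, which phosphorylates GLI proteins, was at 9.11 ± 1.76 CPM in LG/J against 23.6 CPM in SM/J, a log2 difference of -1.37 ± 0.093 (edgeR adjusted p = 1.02e-13). Prkacb, the other main catalytic subunit, was higher by 0.22 ± 0.059 (edgeR adjusted p = 0.00395). Spopl, a relative of the GLI-degrading adaptor Spop, changed by -1.05 ± 0.073 (edgeR adjusted p = 2.12e-13), while Spop was at -0.05 ± 0.049 (edgeR adjusted p = 0.489). Of the other kinases that prime GLI proteins for cleavage, Gsk3b was higher by 0.53 ± 0.077 (edgeR adjusted p = 1.63e-06) and Csnk1a1 changed by -0.50 ± 0.083 (edgeR adjusted p = 2.04e-05).

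Beyond the members, 4 of 9 other GLI target genes tested were higher and 1 was lower. Ccnd1, the cell cycle regulator cyclin D1, was at 51.5 ± 28.9 CPM in LG/J against 24.5 CPM in SM/J, a log2 difference of 1.07 ± 0.23 (edgeR adjusted p = 0.000536). Nkx3-2, a transcription factor that keeps chondrocytes immature, was higher by 1.12 ± 0.27 (edgeR adjusted p = 0.00161), from a mean of 0.718 CPM in LG/J. Rab34, a small GTPase of cilium formation, changed by -0.34 ± 0.073 (edgeR adjusted p = 0.000618). The median over this list was 0.47 with all libraries and 0.15 without both LG/J libraries numbered 1.

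The loop of Ihh and the parathyroid hormone-related protein had 6 of 9 tested genes higher in LG/J and 0 lower with edgeR, with a median of 0.94. At an unadjusted p under 0.05, and with DESeq2, 7 were higher and 0 lower, and with limma voom 6 and 0. Hdac4, a repressor of hypertrophy that restrains Mef2c and Runx2, was at 66.6 ± 13.2 CPM in LG/J against 25.1 CPM in SM/J, a log2 difference of 1.41 ± 0.080 (edgeR adjusted p = 9.46e-16). Runx3, a driver of maturation that can induce Ihh, was higher by 0.98 ± 0.15 (edgeR adjusted p = 5.27e-06), and Mef2c was higher by 1.13 ± 0.19. Pth1r, the receptor of the loop, was higher by 0.82 ± 0.23 (edgeR adjusted p = 0.00782). Pthlh lay at the threshold, at 0.94 ± 0.37 with an edgeR adjusted p of 0.05 after rounding, and 0.0969 without both LG/J libraries numbered 1. Col10a1, the collagen of hypertrophic cartilage, lay at 1.12 ± 0.43 with an edgeR adjusted p of 0.0509, and 0.00193 without those libraries.

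Ciliary transport genes, through which the pathway signals, had 8 of 25 higher and 4 lower. Traf3ip1, an intraflagellar transport protein, was at 4.44 ± 0.857 CPM in LG/J against 65.9 CPM in SM/J, a log2 difference of -3.88 ± 0.078 (edgeR adjusted p = 4.03e-28). Ift27 changed by -0.50 ± 0.060 (edgeR adjusted p = 4.12e-08) and the motor gene Kif3a by -0.38 ± 0.055 (edgeR adjusted p = 1.47e-06). The median over the list was 0.09, against 0.02 over all genes tested.

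**Figure D5:**
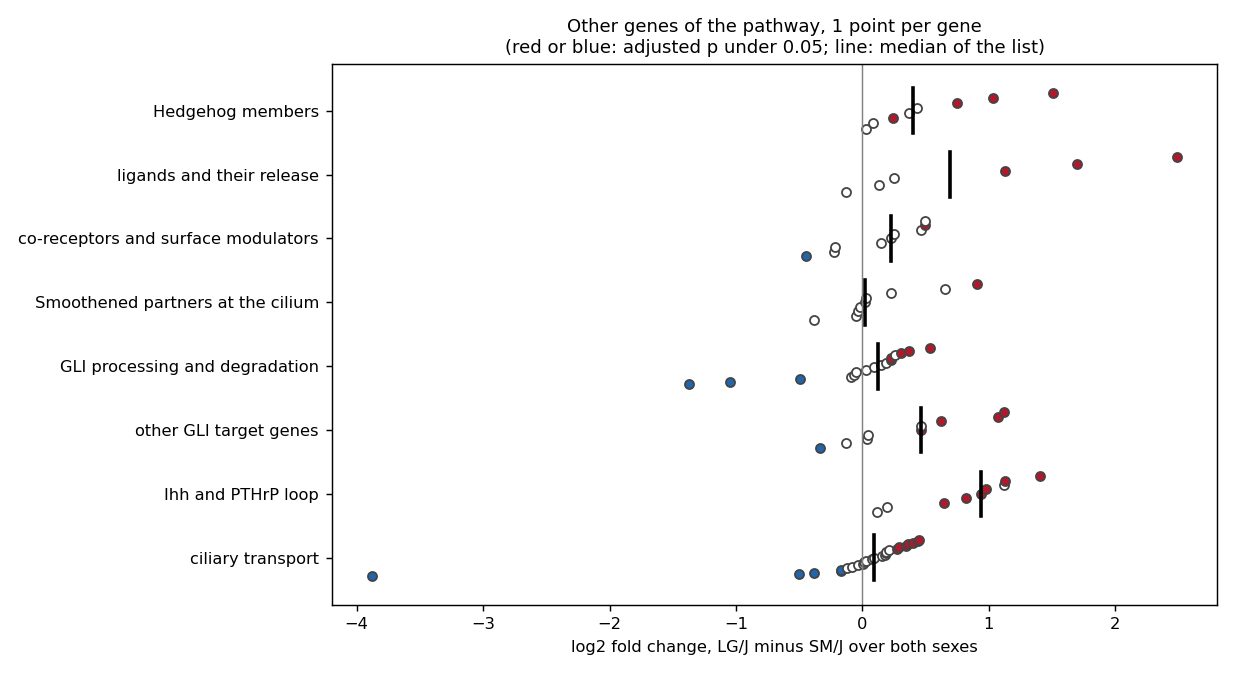
Log2 fold change in LG/J relative to SM/J, both sexes together (horizontal axis), of each tested gene of the pathway lists (rows); red and blue points have an adjusted p under 0.05 and the black line is the list's median. The medians run from 0.02 for the Smoothened partners to 0.94 for the Ihh and PTHrP loop, and Traf3ip1 lies far to the left at -3.88.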

How the data were processed

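RNA of primary chondrocytes was sequenced in 32 libraries, and strain and sex, given by the labels, defined 4 groups of 8. Per the submitters' processing notes, STAR 2.0.4b, featureCounts 1.45 of Subread and the build GRCm38 were used. Neither an annotation release nor a strand setting is given in the sources used here. Each library had a deposited table of read counts, CPM and RPKM for 41388 Ensembl genes, made by the authors. The deposited CPM and RPKM values were recomputed from the counts to within 1.2e-10 and were not tested. A symbol was found for 40254 IDs, and the 1134 others held 0.109% of counts.

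Genes were kept with filterByExpr (16136 kept), scaled with TMM and fitted in edgeR 4.0.16 (R 4.3.3) by quasi-likelihood, with 1 mean per group. The Benjamini-Hochberg adjustment ran over the kept genes, and a gene with an adjusted p under 0.05 was called. Standard errors are the size of the log2 fold change over the square root of F, and 95% intervals use a t distribution. Depth was 15840330 to 25571598 counts per library, and members with few reads have wide intervals. Correlations used log2 CPM (prior count 2) and 100000 permutations, two-sided. On simulated counts of 15873 genes for the strain comparison, the fit found 46.4% of 1.5-fold and 78.8% of 2-fold changes, with 6 false calls among 129. The simulated libraries were drawn independently, without close pairs or libraries with both sexes' transcripts, so these rates need not hold for the real ones.

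The members and lists were chosen with earlier results of these data known. Named were the 8 members, of each pathway list up to 3 called genes with the smallest p, and the 5 genes most like Ihh and most like Gli1, while further genes were named with their values in view. Some genes that this rule or the lists cover are not reported here. Alternatives were other scalings, other filters, DESeq2 1.42.0, voom of limma 3.58.1, the library number as a block, and leaving out or summing libraries. Leaving out the LG/J libraries numbered 4 and 5, and using annotated exonic bases as gene length, were chosen after seeing the data.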

Additional observations from a re-analysis of the deposited data

Results flagged for a closer look

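In 32 groups of 8 libraries (8 genes in 4 groups), 4 had 1 library whose gap to its nearest neighbour was large for the range of its group, by a criterion that chance meets in about 1 group in 20. All 4 were libraries numbered 1. Ptch1 was at 11.31 CPM in SM/J male 1, against 4.985 CPM in the next SM/J male. Sufu was at 14.92 CPM in LG/J female 1 against 10.09 CPM in the next library of that group. It was at 13.63 CPM in LG/J male 1 against 8.646 CPM, and at 11.79 CPM in SM/J male 1 against 7.364 CPM.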

How the results depend on the processing

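Depth limits Ihh and Gli1 most, with 1 to 100 and 0 to 102 reads per library. Over both sexes 4 members passed in 40 of 43 alternatives, 2 without the libraries holding both sexes' transcripts, 2 with close pairs summed and 1 without the LG/J libraries numbered 4 and 5. The cause was not tested.

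The log2 difference of Smo was -0.0448 with the replicate block, -0.1783 without the both-sex libraries, -0.1035 with close pairs summed, -0.2458 without LG/J numbers 4 and 5, and from -0.0375 to 0.0846 with each library left out in turn. That of Sufu was -0.0689 without both LG/J libraries numbered 1 and from -0.0021 to 0.1760 with each library left out. That of Hhip was -0.0668 without the both-sex libraries and -0.1810 without LG/J numbers 4 and 5. In females Gli2 was at -0.0739 without the both-sex libraries, and in males Ihh was at 0.0833 without LG/J numbers 4 and 5.

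In females 1 member passed, with DESeq2 or limma voom 2, without the both-sex libraries 0, and 1 to 2 with each library left out. In males 3 passed, 4 with limma voom, 1 with no filter on low counts, with close pairs summed or without LG/J numbers 4 and 5. Without both LG/J libraries numbered 1, Ptch1 and Gli2 passed in males and Gli3 did not. With each library left out, 1 to 3 passed in males. Between sexes 0 passed, 1 with library size only or with the replicate block, 2 with limma voom, and 0 to 2 with each library left out.

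Over all genes, limma voom called 5636 between strains in males, against 3600. Between sexes 558 genes passed, 123 with no filter, 1029 with DESeq2, 1734 with limma voom, 1052 with the replicate block, 922 without LG/J numbers 1, 31 with close pairs summed, 277 without LG/J numbers 4 and 5, and 314 to 963 with each library left out. For the interaction 1 gene passed, 50 with DESeq2, 256 with limma voom, 0 to 23 with each library left out, and 0 with library size only, with no filter, with the replicate block, without the both-sex libraries, with close pairs summed and without LG/J numbers 4 and 5.

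The correlation of Ihh with Gli1 in LG/J was -0.3675 without both libraries numbered 1, which are also the 2 farthest in Ihh. That with Ptch1 in LG/J was 0.6619 with close pairs summed, and in SM/J -0.0047 without the 2 farthest libraries.

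The library numbers were not taken to pair the samples, since not every pair was over 0.1. Over 48 pairs of same-numbered libraries the correlation of deviations ran from -0.447 to 0.844, with 30 over 0.1, and 7 of the 8 pairs of an LG/J female and male were over it. With 8 libraries of another group to choose from each time, a library correlated best with its own number in 16 of 96 comparisons. With the replicate block the same 4 members passed between strains, and Sufu passed between sexes at -0.459 (edgeR adjusted p = 0.0142).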
